A study of Mus musculus with 40 samples.

Results

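The genes described here are 8 markers of muscle stem cells (satellite cells) and of regenerating muscle fibres: Pax7, Myf5, Myod1, Myog, Myf6, Myh3, Myh8 and Ncam1. They were chosen by name for these roles, with earlier results of these data known. All 8 were found among the 21204 genes of the authors' filtered table, which comes from a full table of 48733 genes.

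The libraries are bulk RNA sequencing of tissue from the rib cage of wild-type female C57BL/6 mice after removal of a piece of rib, and the study asks how repair differs between skeletally immature and mature animals. Immature mice were 7 weeks old and mature mice over 10 months. Tissue was taken at baseline and at 4 later stages, named 0dpr, 2dpr, 5dpr and 14dpr after the number of days since the resection. The sex and strain come from the paper's methods. Baseline pieces held bone, bone marrow and intercostal muscle, and the pieces of the other stages are labelled as bone callus, while the extraction protocol names bone and intercostal muscle for every stage. The paper describes baseline as the state before resection, whereas the baseline labels say that the tissue was collected after it. The labels name no other treatment. Each of the 10 groups had n = 4 libraries, except mature mice at 5dpr with n = 3, because replicate 2 of that group has no column in the deposited tables. The 39 libraries held 6057756 to 21537070 counted reads, with a median of 9087417. The paper's methods give a minimum of 3 individual biological samples for all experiments. The labels do not say whether each library came from a separate animal, so the p-values measure only the spread between these libraries.

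Adult skeletal muscle repairs itself from satellite cells, which lie beside the fibres and are marked by the transcription factor PAX7. After injury they divide, switch on the myogenic regulatory factors in sequence, leave the cell cycle and fuse into new fibres. New fibres first make embryonic and perinatal forms of the myosin heavy chain, which adult forms later replace.

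Levels are given as reads scaled to a common library total (CPM, with TMM factors), library by library in the order of the replicate numbers. Those numbers were 2, 3, 4 and 6 for immature baseline, 2, 3, 4 and 5 for immature 5dpr, 1, 3 and 4 for mature 5dpr, and 1 to 4 elsewhere. Changes are log2 fold changes of the later stage over the earlier one from edgeR's quasi-likelihood test. A gene is said to have risen or fallen where the p-value, adjusted over the 21204 genes by the Benjamini-Hochberg method, was under 0.05. Consecutive comparisons share a group, so that a low or high value in the shared group moves both of them.

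A pair of libraries stood apart from their own groups. Replicate 3 of mature 2dpr had a Pearson r of 0.8628 with the rest of its group over all genes, and it held 0 Pax7 reads. Replicate 1 of immature 0dpr had an r of 0.9023, and every other library had at least 0.9422. Results that use these libraries are given with and without them where a call of a member or a count over a gene list depends on them.

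The members lie on 6 chromosomes of GRCm38. Pax7 (ENSMUSG00000028736) is at chr4:139737062-139833528 on the minus strand. Myf5 (ENSMUSG00000000435, chr10:107482908-107486134) and Myf6 (ENSMUSG00000035923, chr10:107492853-107494737) are neighbours on the minus strand of chromosome 10. Myod1 (ENSMUSG00000009471) is at chr7:46376474-46379099 and Myog (ENSMUSG00000026459) at chr1:134289989-134292548, both on the plus strand. Myh3 (ENSMUSG00000020908, chr11:67078300-67102291) and Myh8 (ENSMUSG00000055775, chr11:67277124-67308634) belong to the myosin heavy chain cluster of chromosome 11, on the plus strand. Ncam1 (ENSMUSG00000039542) is at chr9:49502136-49798925 on the minus strand, and 417 bases of its exons overlap Gm11149 on the opposite strand. The strand setting of the counting is not stated, so reads within these 417 of the 8664 exon bases of Ncam1 cannot be assigned to Ncam1 or to Gm11149. Of the windows of 150 bases in the exons of Myh3, 0.302% also occurred in another gene, and 0.811% for Myh8. With windows of 31 bases the shares were 10.6% and 16.9%, so part of the reads of these myosins could have been divided with other myosin genes. The other 6 members shared no window of 150 bases.

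Promoters are shown for Myog, Myh3 and Myh8, the 3 members whose levels were furthest above baseline at 5dpr. RefSeq promoter sequences of build GRCm38.p6 were found for 5 of the 8 members (Myog, Pax7, Myf5, Myh3 and Myh8). The sequences, 5′ to 3′, are those of chr1:134289754-134290053 (+), chr11:67078050-67078349 (+) and chr11:67276874-67277173 (+). Capitals mark matches, on either strand, to the E-box CANNTG, the MEF2 site or TATAAA.
Myog: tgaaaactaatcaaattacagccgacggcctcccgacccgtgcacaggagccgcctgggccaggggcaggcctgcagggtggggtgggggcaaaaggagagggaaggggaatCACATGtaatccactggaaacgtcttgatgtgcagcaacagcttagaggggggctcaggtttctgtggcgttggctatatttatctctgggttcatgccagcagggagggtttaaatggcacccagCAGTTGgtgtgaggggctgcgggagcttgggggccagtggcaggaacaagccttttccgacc
Myh3: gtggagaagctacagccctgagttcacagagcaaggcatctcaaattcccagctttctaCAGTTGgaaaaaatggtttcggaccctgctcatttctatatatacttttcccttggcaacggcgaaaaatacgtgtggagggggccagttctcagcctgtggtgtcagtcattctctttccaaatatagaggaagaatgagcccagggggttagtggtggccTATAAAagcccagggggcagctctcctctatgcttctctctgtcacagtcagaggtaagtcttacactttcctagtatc
Myh8: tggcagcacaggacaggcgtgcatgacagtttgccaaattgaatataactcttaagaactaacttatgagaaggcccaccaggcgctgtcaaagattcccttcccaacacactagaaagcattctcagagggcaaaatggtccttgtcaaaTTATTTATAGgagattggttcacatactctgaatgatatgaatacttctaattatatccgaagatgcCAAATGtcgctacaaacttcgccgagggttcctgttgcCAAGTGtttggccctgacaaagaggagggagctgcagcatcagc
Myog had CANNTG matches at -138 (CACATG) and -12 (CAGTTG) from the start in the promoter table, and Myh3 had CAGTTG at -191 and TATAAA at -29. Myh8 had CAAATG at -32, CAAGTG at 7, and at -99 a MEF2 match that contains a TATAAA match on the other strand (TTTATA, at -96). Among 32851 promoters of the same length, 72.3% held CANNTG, 3.19% the MEF2 site and 13.6% TATAAA. The narrower E-box CAGCTG, a case of CANNTG held by 16.3% of them, matched in none of the 5 member promoters. Myf5 had a TATAAA match at 21, and Pax7 had no match to any of these motifs. For Myog that start lies downstream of the first annotated base given above, so the match at -12 falls inside the annotated gene. A match describes the letters only and says nothing about binding.

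**Figure D1:**
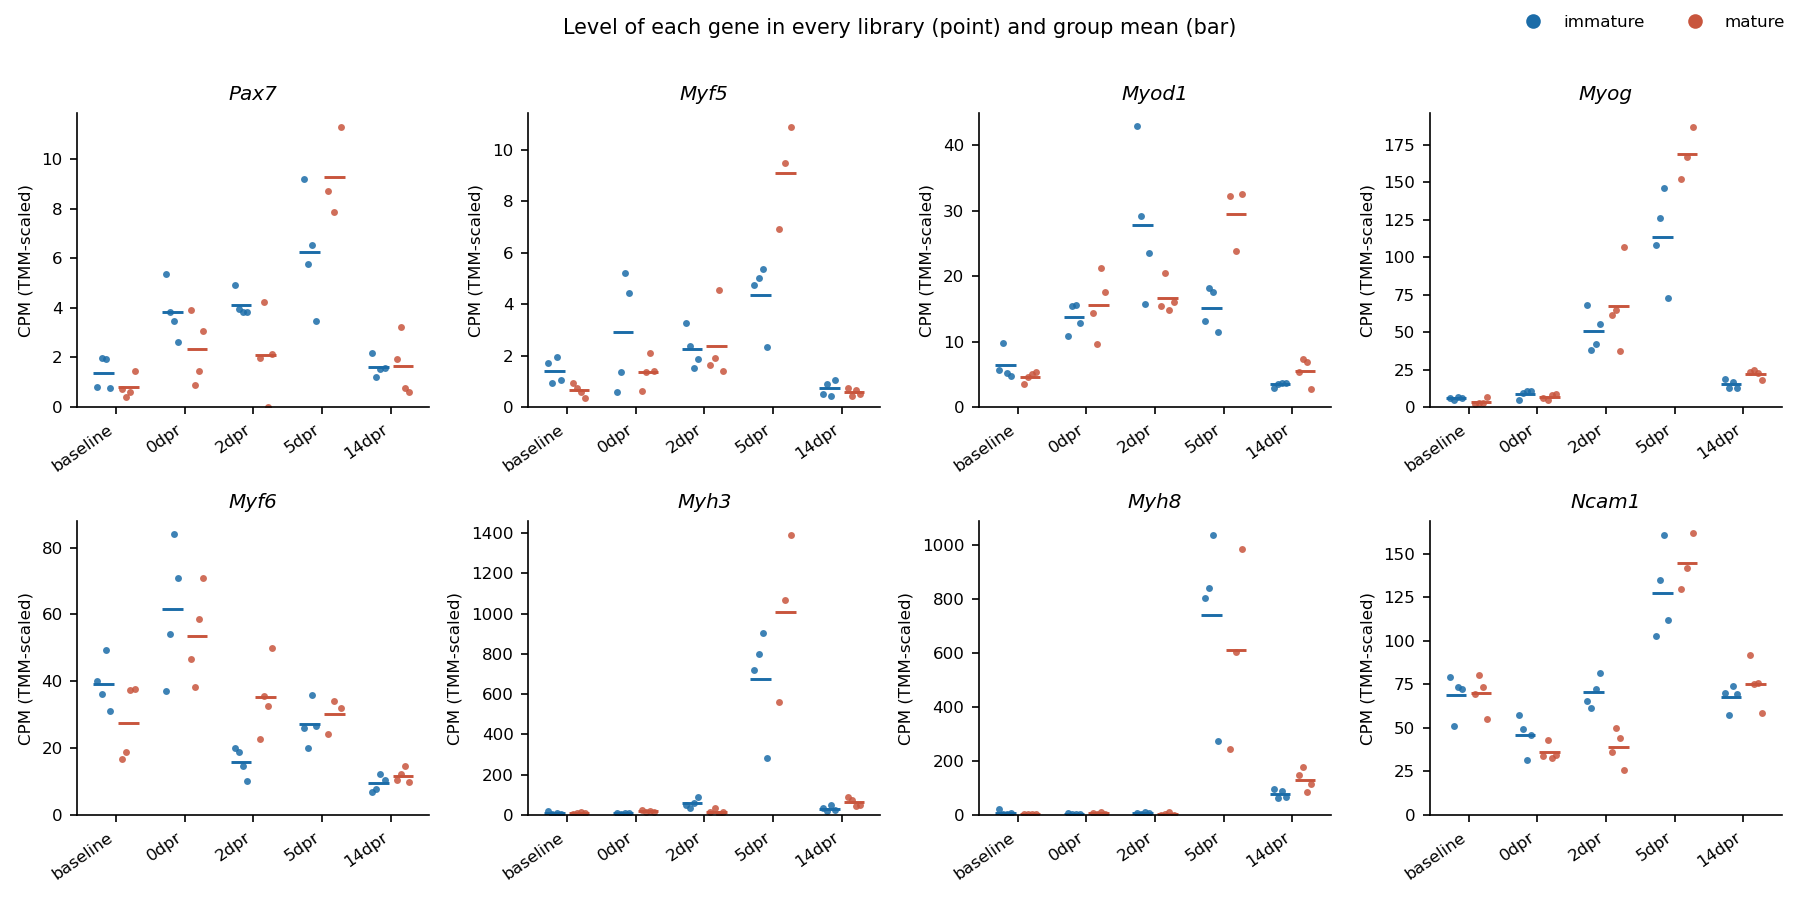
CPM of each member (vertical axis, 1 panel per gene) at baseline, 0, 2, 5 and 14dpr in immature and mature mice. Points are libraries and bars are group means; Myh3 reached 1391 CPM and Myh8 1036 CPM at 5dpr, while Pax7 did not exceed 11.3 CPM.

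Pax7 encodes the paired-box factor that marks satellite cells and keeps them in reserve. Pax7 in immature mice was at 0.8, 1.96, 1.93 and 0.766 CPM at baseline and at 5.38, 3.82, 3.46 and 2.64 CPM at 0dpr. It was at 4.92, 3.94, 3.85 and 3.83 CPM at 2dpr, at 9.2, 5.76, 6.53 and 3.47 CPM at 5dpr and at 2.19, 1.22, 1.52 and 1.59 CPM at 14dpr. All libraries of 0, 2 and 5dpr were above all libraries of baseline and 14dpr, and within each of these sets the stages overlapped. In mature mice the levels were 0.734, 0.419, 0.591 and 1.46 CPM at baseline, 3.92, 0.873, 1.44 and 3.06 CPM at 0dpr and 1.98, 4.24, 0 and 2.13 CPM at 2dpr. They were 8.72, 7.87 and 11.3 CPM at 5dpr and 1.93, 3.24, 0.78 and 0.623 CPM at 14dpr. The 3 mature libraries of 5dpr stood above all other mature libraries, and the 4 other stages overlapped. Between 2 and 5dpr Pax7 rose in mature mice by 2.13 on the log2 scale (SE 0.568, adjusted p = 0.00936), and by 1.75 (adjusted p = 0.00977) without replicate 3 of 2dpr. This call was lost with the mean level of adult muscle genes as a covariate (1.76, adjusted p = 0.114) and in a fit of the compared libraries alone (2.13, adjusted p = 0.28). In immature mice the same change was 0.58 (adjusted p = 0.625) with overlapping groups. The difference between the ages in this change was -1.54 (SE 0.772, adjusted p = 0.616), so a difference was not shown. Pax7 fell by 2.5 in mature mice between 5 and 14dpr (SE 0.588, adjusted p = 0.00992). In immature mice the value was -1.93 (adjusted p = 0.0504), just short of the threshold, and -2.13 (adjusted p = 0.0397) without replicate 5 of 5dpr. DESeq2 called that immature fall (-1.93, adjusted p = 0.00733), as did edgeR with its own filter (-1.92, adjusted p = 0.0479), with the replicate number as a block (-2.21, adjusted p = 0.038) and with the compared libraries alone (-1.91, adjusted p = 0.00296). The values from baseline to 0dpr were 1.48 (adjusted p = 0.0903) in immature and 1.53 (adjusted p = 0.0698) in mature mice, neither past the threshold, while DESeq2 called both (1.54, adjusted p = 0.0281, and 1.57, adjusted p = 0.0237). The mature edgeR value passed it without replicate 4 of baseline (1.92, adjusted p = 0.0378) or without replicate 2 of 0dpr (1.75, adjusted p = 0.0371). The changes from 0 to 2dpr were 0.12 (adjusted p = 0.881) and -0.11 (adjusted p = 0.888), with an interaction of 0.23 (adjusted p = 0.927). With replicate 3 of mature 2dpr left out, the mature value was 0.28 and the interaction -0.16, and without replicate 1 of immature 0dpr the immature value was 0.34 and the interaction 0.42. Between baseline and 14dpr Pax7 differed by 0.25 (adjusted p = 0.793) and 1.05 (adjusted p = 0.207). With 1 library left out these values ran from 0.05 to 0.5 and from 0.48 to 1.49, and 0 of the fits were past the threshold.

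Myf5 encodes an early myogenic regulatory factor that is also made in quiescent satellite cells. Myf5 in immature mice was at 1.71, 0.928, 1.93 and 1.05 CPM at baseline, at 0.598, 1.36, 5.19 and 4.45 CPM at 0dpr and at 3.25, 2.36, 1.51 and 1.86 CPM at 2dpr. It was at 4.76, 5.01, 5.36 and 2.34 CPM at 5dpr and at 0.487, 0.913, 0.434 and 1.06 CPM at 14dpr. Each stage overlapped the next in the order 5dpr, 0dpr, 2dpr, baseline, 14dpr, and the 0dpr libraries were split between low and high values. In mature mice Myf5 was at 0.943, 0.754, 0.591 and 0.337 CPM at baseline, at 0.627, 1.37, 2.11 and 1.39 CPM at 0dpr and at 1.65, 1.91, 4.55 and 1.39 CPM at 2dpr. It was at 6.9, 9.49 and 10.9 CPM at 5dpr, above every other mature library, and at 0.723, 0.447, 0.669 and 0.519 CPM at 14dpr. Like Pax7, Myf5 had its highest mature level at 5dpr, and the other mature stages overlapped their neighbours. Myf5 rose by 1.96 from 2 to 5dpr in mature mice (SE 0.472, adjusted p = 0.00402), or by 2.47 (adjusted p = 0.000404) without replicate 3 of 2dpr. It too lost this call with the muscle covariate (1.57, adjusted p = 0.104) and with the compared libraries alone (1.93, adjusted p = 0.0857). The immature value was 0.96 (adjusted p = 0.223), and the difference between the ages was -1 (adjusted p = 0.697). Myf5 fell from 5 to 14dpr in both ages, with changes of -2.56 in immature mice (SE 0.5, adjusted p = 0.00159) and -3.92 in mature mice (SE 0.534, adjusted p = 1.15e-05), and with no overlap between the stages in either age. No other Myf5 change was called. The values were 1.06 in each age from baseline to 0dpr (adjusted p = 0.144 in both), and -0.39 (adjusted p = 0.514) and 0.74 (adjusted p = 0.211) from 0 to 2dpr, with an interaction of -1.13 (adjusted p = 0.527). With replicate 3 of mature 2dpr left out, the mature value was 0.23 and the interaction -0.62, or -1.5 for the change from 2 to 5dpr. Without replicate 1 of immature 0dpr the immature values were 1.36 (adjusted p = 0.0613) and -0.69. Between baseline and 14dpr they were -0.93 (adjusted p = 0.179) and -0.17 (adjusted p = 0.857).

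Myod1 encodes the factor that commits activated satellite cells to the muscle lineage. Myod1 in immature mice was at 5.6, 9.79, 5.22 and 4.79 CPM at baseline, at 10.8, 15.5, 15.6 and 12.9 CPM at 0dpr and at 42.9, 29.2, 15.8 and 23.5 CPM at 2dpr. It was at 13.2, 18.2, 17.6 and 11.5 CPM at 5dpr and at 2.92, 3.45, 3.69 and 3.72 CPM at 14dpr. The immature order was 2dpr, 5dpr, 0dpr, baseline and 14dpr, in which only the first 3 stages overlapped their neighbours. In mature mice Myod1 was at 3.46, 4.53, 5.03 and 5.39 CPM at baseline, at 14.3, 9.61, 21.2 and 17.5 CPM at 0dpr and at 15.4, 20.4, 14.8 and 16.1 CPM at 2dpr. It was at 32.2, 23.9 and 32.5 CPM at 5dpr and at 5.3, 7.26, 6.91 and 2.8 CPM at 14dpr. The mature libraries of 5dpr were above all others, those of 2 and 0dpr overlapped, and those of 14dpr and baseline were low and overlapped. Myod1 was thus highest at 2dpr in immature and at 5dpr in mature mice.

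Myod1 rose from baseline to 0dpr by 1.11 in immature mice (SE 0.277, adjusted p = 0.00997) and by 1.77 in mature mice (SE 0.282, adjusted p = 5.85e-05), with no overlap in either age. Without replicate 1 of immature 0dpr the immature value was 1.18 (adjusted p = 0.0153). Both calls were lost with the muscle covariate (0.91, adjusted p = 0.0531, and 1.28, adjusted p = 0.0663). The immature call was also lost with the replicate number as a block (1.01, adjusted p = 0.0614) and with the compared libraries alone (1.1, adjusted p = 0.0929). It rose from 0 to 2dpr in immature mice by 1.02 (SE 0.266, adjusted p = 0.00203), or by 0.94 without replicate 1 of 0dpr and 2.05 with the covariate, and the mature value was 0.09 (adjusted p = 0.805). The difference between the ages was 0.93 (SE 0.374, adjusted p = 0.338). Myod1 fell by 0.88 from 2 to 5dpr in immature mice (SE 0.264, adjusted p = 0.0324), with overlapping groups, and rose by 0.82 in mature mice (SE 0.278, adjusted p = 0.0413), with no overlap. The immature fall was not past the threshold without replicate 1 (-0.59, adjusted p = 0.214) or 2 (-0.85, adjusted p = 0.0768) of 2dpr. The same held without replicate 2 (-0.82, adjusted p = 0.0955) or 5 (-0.77, adjusted p = 0.112) of 5dpr. The mature rise was not past it without replicate 1 (0.79, adjusted p = 0.0821), 3 (0.77, adjusted p = 0.0803) or 4 (0.81, adjusted p = 0.0691) of 2dpr. It also missed the threshold without replicate 1 (0.76, adjusted p = 0.128) or 4 (0.75, adjusted p = 0.145) of 5dpr. The same was seen with the covariate (0.45, adjusted p = 0.431), with all genes of at least 1 count (0.79, adjusted p = 0.0674) and with the compared libraries alone (0.81, adjusted p = 0.0821). With the replicate number as a block neither age passed it (-0.78, adjusted p = 0.139, and 0.82, adjusted p = 0.0573). Although the signs differed, the difference between the ages in this change was not past the threshold in edgeR (-1.7, SE 0.383, adjusted p = 0.174) and was called by DESeq2 (-1.66, adjusted p = 0.0166). Myod1 was lower at 14dpr than at 5dpr in immature (-2.13, SE 0.289, adjusted p = 1.35e-05) and mature mice (-2.41, SE 0.293, adjusted p = 1.61e-06), with no overlap. At 14dpr it was below baseline in immature mice (-0.88, SE 0.293, adjusted p = 0.0196), a call lost without replicate 3 of baseline (-0.58, adjusted p = 0.158) or replicate 1 of 14dpr (-0.81, adjusted p = 0.0585). With the muscle covariate that value was -0.09 (adjusted p = 0.946). The mature value was 0.27 (adjusted p = 0.518), and a difference between the ages in this change was not tested.

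Myog encodes myogenin, the factor of cells that leave the cell cycle and differentiate. Myog in immature mice was at 5.83, 4.74, 6.81 and 5.93 CPM at baseline, at 4.63, 9.12, 10.6 and 10.6 CPM at 0dpr and at 67.9, 37.9, 42 and 55.4 CPM at 2dpr. It was at 108, 126, 146 and 72.7 CPM at 5dpr and at 19, 13, 16.4 and 12.5 CPM at 14dpr. In both ages the order was 5dpr, 2dpr, 14dpr, 0dpr and baseline, and only 0dpr and baseline overlapped. In mature mice Myog was at 2.2, 2.35, 2.56 and 6.51 CPM at baseline, at 6.12, 4.74, 8.2 and 8.75 CPM at 0dpr and at 61.3, 64.8, 37.2 and 107 CPM at 2dpr. It was at 152, 167 and 187 CPM at 5dpr and at 23.5, 24.4, 23 and 18.2 CPM at 14dpr. Myog rose from 0 to 2dpr by 2.53 in immature mice (SE 0.294, adjusted p = 9.76e-09) and by 3.28 in mature mice (SE 0.305, adjusted p = 4.58e-11). Without the libraries that stood apart these were 2.35 and 3.48, and with the muscle covariate 4.28 and 5.33. It rose again from 2 to 5dpr, by 1.16 (SE 0.268, adjusted p = 0.0043) and 1.31 (SE 0.282, adjusted p = 0.00131), the mature value being 1.11 without replicate 3 of 2dpr. With the covariate both of these calls were lost (0.76, adjusted p = 0.0581, and 0.73, adjusted p = 0.109). Its changes from 5 to 14dpr were -2.9 (SE 0.289, adjusted p = 5.8e-08) and -2.92 (SE 0.296, adjusted p = 6.89e-08), a fall in both ages. At 14dpr it was above baseline by 1.38 in immature (SE 0.301, adjusted p = 0.000444) and by 2.73 in mature mice (SE 0.316, adjusted p = 1.75e-08), the immature value being 2.71 with the covariate. The interaction with age was -0.75 (adjusted p = 0.486) from 0 to 2dpr and -0.16 (adjusted p = 0.93) from 2 to 5dpr, and for the other changes it was not tested.

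Myog rose by 1.05 from baseline to 0dpr in mature mice (SE 0.331, adjusted p = 0.0194), where replicate 4 of baseline overlapped the 0dpr libraries, and the immature value was 0.59 (adjusted p = 0.221). This mature call was lost without replicate 1 (0.9, adjusted p = 0.078), 2 (0.9, adjusted p = 0.0848) or 3 (0.94, adjusted p = 0.0637) of baseline. It was also lost without replicate 3 (0.98, adjusted p = 0.063) or 4 (0.88, adjusted p = 0.0757) of 0dpr. With the muscle covariate it was 0.28 (adjusted p = 0.764), and with the compared libraries alone 1.04 (adjusted p = 0.0651). Whether the ages differ in this change was not tested.

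Myf6 encodes MRF4, the myogenic factor that predominates in mature fibres. Myf6 in immature mice was at 40, 36.3, 49.5 and 31 CPM at baseline, at 37.2, 54.1, 84.1 and 70.8 CPM at 0dpr and at 19.9, 19, 14.8 and 10.2 CPM at 2dpr. It was at 25.9, 20, 35.9 and 26.6 CPM at 5dpr and at 6.94, 7.91, 12.3 and 10.6 CPM at 14dpr. The high stages were 0dpr, baseline and 5dpr, each overlapping the next, and all their libraries lay above those of 2 and 14dpr. In mature mice Myf6 was at 16.8, 18.9, 37.3 and 37.6 CPM at baseline, at 46.6, 38.4, 58.5 and 70.8 CPM at 0dpr and at 22.6, 35.5, 32.6 and 50 CPM at 2dpr. It was at 24.2, 34 and 32.1 CPM at 5dpr and at 10.5, 12.2, 14.6 and 9.76 CPM at 14dpr. In mature mice only the 14dpr libraries were apart, below all others, and the baseline libraries were split into a low and a high pair. Unlike the other regulatory factors, Myf6 was highest at 0dpr in both ages.

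Myf6 fell by 1.95 from 0 to 2dpr in immature mice (SE 0.281, adjusted p = 5.82e-07), and the value was -2.1 without replicate 1 of 0dpr. The mature value was -0.6 (SE 0.269, adjusted p = 0.0631) with overlapping groups, and the difference between the ages was -1.34 (SE 0.384, adjusted p = 0.201). The mature value passed the threshold without replicate 2 of 0dpr (-0.71, adjusted p = 0.0388) or replicate 4 of 2dpr (-0.83, adjusted p = 0.0173). With the mean level of adult muscle genes as a covariate, both values changed sign, to 0.23 (adjusted p = 0.837) in immature and 1.90 (adjusted p = 0.0106) in mature mice. The same fit called the difference between the ages in this change (-1.67, adjusted p = 0.00715). That mean level did not overlap between the stages. In immature mice its lowest value at 0dpr was 11.64 and its highest at 2dpr 9.76, and in mature mice 11.84 and 9.63. The covariate values of any member over this interval thus extend a slope across a gap between the stages. Without the covariate, DESeq2 called the mature fall from 0 to 2dpr (-0.69, adjusted p = 0.028). It was called as well with RLE size factors (-0.68, adjusted p = 0.0323), with edgeR's filter (-0.65, adjusted p = 0.0423) and with the replicate block (-0.62, adjusted p = 0.0339).

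Myf6 rose from baseline to 0dpr in mature mice by 0.96 (SE 0.272, adjusted p = 0.00978), with no overlap, and the immature value was 0.65 (adjusted p = 0.111). The mature call was lost without replicate 1 (0.78, adjusted p = 0.0557) or 2 (0.81, adjusted p = 0.0547) of baseline or replicate 4 of 0dpr (0.74, adjusted p = 0.0592). With the muscle covariate the mature value was 0.05 (adjusted p = 0.958). A difference between the ages in this change was not tested. Its changes from 2 to 5dpr were not past the threshold (0.77, adjusted p = 0.0845, and -0.23, adjusted p = 0.657), with an interaction of 1 (adjusted p = 0.563). DESeq2 called the immature change (0.79, adjusted p = 0.042), as did the fit of the compared libraries alone (0.76, adjusted p = 0.0346), and the fit with the covariate called a mature fall (-0.96, adjusted p = 0.00963). Myf6 fell from 5 to 14dpr in immature (-1.53, SE 0.286, adjusted p = 0.00099) and in mature mice (-1.36, SE 0.297, adjusted p = 0.00497). At 14dpr it was below baseline in both ages, with no overlap (-2.05, adjusted p = 7.49e-07, and -1.23, adjusted p = 0.000734). Both of these calls were lost with the covariate (-0.43, adjusted p = 0.508, and -0.21, adjusted p = 0.648).

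Myh3 encodes embryonic myosin heavy chain, which new and regenerating fibres make first. Myh3 in immature mice was at 20.4, 5.15, 11.5 and 6.6 CPM at baseline, at 9.41, 5.3, 8.56 and 10.3 CPM at 0dpr and at 49.8, 37, 59 and 87.9 CPM at 2dpr. It was at 722, 802, 903 and 281 CPM at 5dpr and at 34.7, 20.4, 49.9 and 24.3 CPM at 14dpr. The 5dpr libraries were far above the rest, with replicate 5 the lowest of them, and 2dpr overlapped 14dpr, which overlapped baseline. In mature mice Myh3 was at 6.92, 11.9, 12.8 and 9.87 CPM at baseline, at 23.7, 17.2, 20.6 and 13.9 CPM at 0dpr and at 12.6, 33.5, 6.88 and 13.5 CPM at 2dpr. It was at 563, 1069 and 1391 CPM at 5dpr and at 91.7, 75.6, 46.8 and 48.9 CPM at 14dpr. The mature libraries of 5dpr and then of 14dpr stood above all others, and those of 0dpr, 2dpr and baseline were low. At 2dpr all 4 immature libraries were above all 4 mature ones, and at 0dpr all 4 mature libraries were above all 4 immature ones.

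Myh3 rose from 0 to 2dpr in immature mice by 2.8 (SE 0.438, adjusted p = 2.34e-06), or by 2.88 without replicate 1 of 0dpr. The mature value was -0.18 (SE 0.411, adjusted p = 0.752). The difference between the ages in this change was 2.98 (SE 0.596, adjusted p = 0.0405), the only interaction of a member past the threshold in the edgeR fit without a covariate. The difference between the ages at 0dpr, immature over mature, was -1.17 (adjusted p = 0.249) and enters this value together with the one at 2dpr. With the muscle covariate the call was lost (2.81, adjusted p = 0.0586), as it was with the compared libraries alone (2.96, adjusted p = 0.323), and with the covariate Myf6 was called in its place. With 1 of its 16 libraries left out at a time, it kept the call in 5 fits. In immature mice it was lost without replicate 1 (3.04, adjusted p = 0.0846), 2 (2.83, adjusted p = 0.0549) or 3 (2.99, adjusted p = 0.0805) of 0dpr. It was lost without replicate 1 (3.05, adjusted p = 0.0916), 3 (2.98, adjusted p = 0.0628) or 4 (2.72, adjusted p = 0.132) of 2dpr. In mature mice it was lost without replicate 1 (2.85, adjusted p = 0.0992), 3 (2.92, adjusted p = 0.0639) or 4 (3.1, adjusted p = 0.0658) of 0dpr. It was lost without replicate 1 (2.87, adjusted p = 0.0926) or 3 (2.74, adjusted p = 0.0701) of 2dpr. Over all 16 fits the value ran from 2.72 to 3.56 and the adjusted p from 0.00565 to 0.132, so the call depended on single libraries.

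Myh3 rose from 2 to 5dpr by 3.53 in immature mice (SE 0.424, adjusted p = 7.33e-07) and by 5.92 in mature mice (SE 0.485, adjusted p = 1.03e-10), the latter by 5.67 without replicate 3 of 2dpr. The interaction was -2.38 (SE 0.574, adjusted p = 0.186), and among the fits with 1 library left out it passed the threshold only without replicate 2 of mature 2dpr (-2.97, adjusted p = 0.035). DESeq2 called it as well (-2.36, adjusted p = 0.0317). Myh3 fell from 5 to 14dpr in immature (-4.39, SE 0.443, adjusted p = 6.12e-08) and mature mice (-3.94, SE 0.443, adjusted p = 6.39e-07). It was still above baseline at 14dpr, by 1.57 in immature mice (SE 0.42, adjusted p = 0.00363), where replicate 2 of baseline reached the lowest 14dpr library, and by 2.66 in mature mice (SE 0.426, adjusted p = 6.23e-06), with no overlap. With the muscle covariate the immature call was lost (2.13, adjusted p = 0.0517). The values from baseline to 0dpr were -0.37 (adjusted p = 0.642) and 0.86 (adjusted p = 0.147), and the mature one was called with the compared libraries alone (0.85, adjusted p = 0.0227).

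Myh8 encodes perinatal myosin heavy chain, which follows the embryonic form in new fibres. Myh8 in immature mice was at 20.7, 4.12, 3.74 and 5.84 CPM at baseline, at 7.47, 2.96, 4.64 and 5.56 CPM at 0dpr and at 5.76, 3.49, 9.55 and 8.13 CPM at 2dpr. It was at 803, 839, 1036 and 275 CPM at 5dpr and at 96.4, 61.2, 87.1 and 65.4 CPM at 14dpr. Both late stages were high without overlap, and the 3 earlier stages were low, apart from replicate 2 of baseline. In mature mice Myh8 was at 3.77, 3.86, 2.96 and 3.48 CPM at baseline, at 7.84, 4.86, 9.53 and 3.61 CPM at 0dpr and at 0.991, 3.72, 11.4 and 1.3 CPM at 2dpr. It was at 246, 604 and 984 CPM at 5dpr and at 149, 176, 84.4 and 115 CPM at 14dpr. The mature order was the same in its first 2 places, 5dpr and 14dpr, and the earlier stages overlapped. Between 0 and 2dpr Myh8 was not called in either age (0.41, adjusted p = 0.59, and -0.69, adjusted p = 0.349), unlike Myh3 in immature mice. Without replicate 3 of mature 2dpr the mature value was -1.75 (adjusted p = 0.0154), a fall.

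Myh8 rose from 2 to 5dpr by 6.76 in immature (SE 0.611, adjusted p = 2.6e-09) and by 7.24 in mature mice (SE 0.639, adjusted p = 4.86e-10), the latter by 8.31 without replicate 3 of 2dpr. The interaction was -0.48 (adjusted p = 0.877), and for the change from 0 to 2dpr it was 1.1 (adjusted p = 0.615), or -1.55 and 2.17 without replicate 3 of mature 2dpr. Between baseline and 0dpr Myh8 differed by -0.74 (adjusted p = 0.436) in immature and 0.88 (adjusted p = 0.307) in mature mice, and the immature value was 0.15 (adjusted p = 0.913) without replicate 2 of baseline. Its fall from 5 to 14dpr was -3.25 in immature (SE 0.508, adjusted p = 0.000112) and -2.22 in mature mice (SE 0.507, adjusted p = 0.00749), where the call was lost without replicate 4 of 5dpr (-1.7, adjusted p = 0.0944). At 14dpr it was above baseline by 3.18 in immature mice (SE 0.532, adjusted p = 1.25e-05), or by 4.07 without replicate 2 of baseline, and by 5.21 in mature mice (SE 0.592, adjusted p = 1.12e-08). Relative to 5dpr, both myosins were thus lower at 14dpr, and both were above their own baseline.

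Ncam1 encodes the neural cell adhesion molecule, found on satellite cells, on regenerating and denervated fibres, and on nerve cells. Ncam1 in immature mice was at 79.1, 51.2, 73.6 and 72.2 CPM at baseline, at 57.5, 49.4, 31.3 and 46 CPM at 0dpr and at 65.7, 61.5, 72.6 and 81.8 CPM at 2dpr. It was at 103, 135, 161 and 112 CPM at 5dpr and at 69.8, 57.4, 74.3 and 69.6 CPM at 14dpr. Only the 5dpr libraries were apart from the next stage in the order, above all others. In mature mice Ncam1 was at 69.5, 80.6, 73.7 and 55.3 CPM at baseline, at 34, 43, 32.5 and 34.7 CPM at 0dpr and at 36.3, 50.2, 44.1 and 26 CPM at 2dpr. It was at 130, 142 and 162 CPM at 5dpr and at 91.7, 75.2, 76 and 58.3 CPM at 14dpr. The mature levels formed 3 tiers without overlap, 5dpr, then 14dpr with baseline, then 2dpr with 0dpr. Ncam1 was the member whose level at 0dpr was below baseline in both ages.

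Ncam1 fell from baseline to 0dpr in immature (-0.59, SE 0.183, adjusted p = 0.0348) and in mature mice (-0.95, SE 0.185, adjusted p = 0.000369). The immature groups overlapped, and that call was lost without replicate 2 (-0.51, adjusted p = 0.106), 4 (-0.59, adjusted p = 0.0591) or 6 (-0.56, adjusted p = 0.0862) of baseline. It was also lost without replicate 3 (-0.4, adjusted p = 0.227) or 4 (-0.55, adjusted p = 0.0654) of 0dpr, while without replicate 1 of 0dpr it was -0.74 (adjusted p = 0.0256). With the muscle covariate neither age was called (-0.48, adjusted p = 0.131, and -0.68, adjusted p = 0.143). The immature call was lost too with the replicate block (-0.58, adjusted p = 0.102) and with the compared libraries alone (-0.6, adjusted p = 0.149). Ncam1 rose from 0 to 2dpr in immature mice by 0.61 (SE 0.183, adjusted p = 0.00618), or by 0.75 without replicate 1 of 0dpr. Without replicate 3 of 0dpr the value was 0.44 (adjusted p = 0.055), and with the muscle covariate it was 0.05 (adjusted p = 0.966). The mature value was 0.11 (adjusted p = 0.646), and the difference between the ages was 0.5 (adjusted p = 0.463). It rose from 2 to 5dpr by 0.86 in immature (SE 0.181, adjusted p = 0.00169) and by 1.9 in mature mice (SE 0.195, adjusted p = 1.49e-08), the latter by 1.96 without replicate 3 of 2dpr, with an interaction of -1.03 (adjusted p = 0.268). Its changes from 5 to 14dpr, a fall in both ages, were -0.92 (SE 0.181, adjusted p = 0.00185) and -0.95 (SE 0.192, adjusted p = 0.00237). At 14dpr it did not differ from baseline past the threshold (-0.03, adjusted p = 0.934, and 0.11, adjusted p = 0.703).

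**Figure D2:**
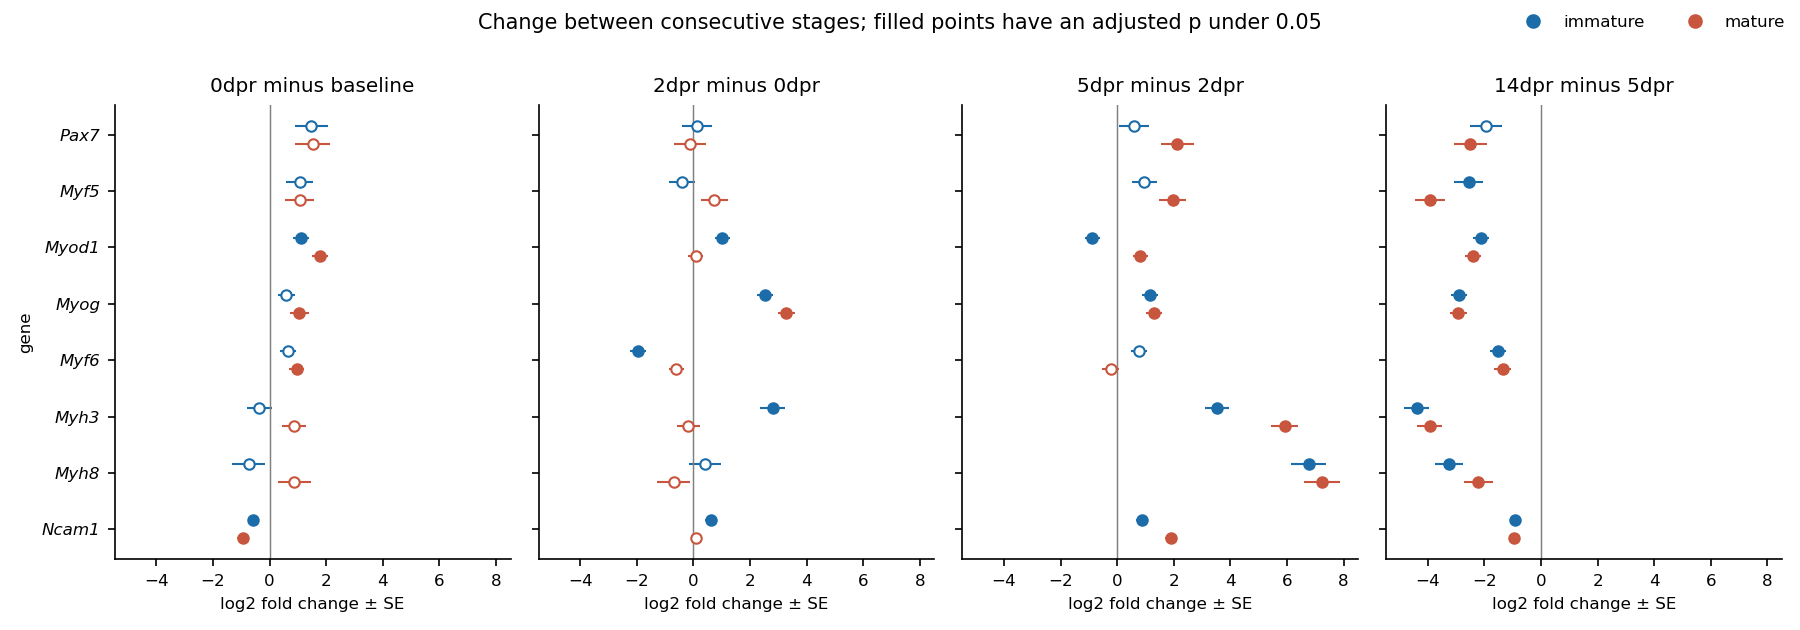
Log2 fold change of each member between consecutive stages (horizontal axis, with SE bars) in immature and mature mice, 1 panel per pair of stages and genes on the vertical axis. Filled points have an adjusted p under 0.05; Myh8 rose by 6.76 and 7.24 from 2 to 5dpr, and every value from 5 to 14dpr was below 0.

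Counted over the members, 1 of 8 rose and 1 fell from baseline to 0dpr in immature mice, where 5.98% of all tested genes rose and 4.66% fell. That background rests on replicate 1 of 0dpr, since without it 747 genes rose and 500 fell in place of 1268 and 989, while the members called were the same (Myod1 and Ncam1). In mature mice 3 rose and 1 fell, against 11.9% and 10.6% of all genes. In immature mice 4 members rose and 1 fell from 0 to 2dpr, against 21.8% and 22.2% of all genes. In mature mice 1 member rose and 0 fell over that interval, against 22.7% and 24.9%. In that mature comparison edgeR gave 2 members at an unadjusted p under 0.05, beside 11315 of all 21204 genes, and DESeq2 called 2 members. Without replicate 3 of mature 2dpr, 2 members were called, Myog up and Myh8 down.

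Between 2 and 5dpr 4 members rose and 1 fell in immature mice, against 4.37% and 3.68% of all genes. In mature mice 7 rose and 0 fell, against 8.16% and 6.38%, with 6 called without replicate 3 of 2dpr. Between 5 and 14dpr 7 members fell and 0 rose in immature mice, where 1.45% of all genes fell and 1.73% rose. All 8 fell in mature mice, where 2.23% of all genes fell and 1.95% rose. In each of the 4 comparisons between 2 and 14dpr, edgeR gave 7 or 8 members at an unadjusted p under 0.05, and DESeq2 called 6 to 8. Of all 21204 genes, edgeR gave 4211 in immature and 5842 in mature mice at that unadjusted p from 2 to 5dpr. From 5 to 14dpr it gave 2965 and 3905. The median change of the 8 members from 2 to 5dpr was 0.91 in immature and 1.93 in mature mice, beside 0.01 and 0.06 for all genes. For the interval from 5 to 14dpr the member medians were -2.34 and -2.46, beside -0.02 in both ages for all genes. Because the members were chosen with earlier results of these data known, their counts and medians beside all genes are a description and not a test.

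At 14dpr, 3 members were above and 2 below baseline in immature mice (all genes 16.4% and 15.1%). In mature mice 3 were above and 1 below (17.1% and 16.4%). Myog, Myh3 and Myh8 were the members above baseline in both ages, and Myf6 was below it in both.

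Some values that were not called changed sign when 1 library was left out, and their ranges over these fits are given here. From 0 to 2dpr they were -0.05 to 0.34 for Pax7 and -0.69 to 0.03 for Myf5 in immature mice. In mature mice they were -0.67 to 0.28 for Pax7, -0.06 to 0.25 for Myod1, -0.76 to 0.07 for Myh3 and -0.03 to 0.27 for Ncam1. From baseline to 0dpr in immature mice they were -0.65 to 0.12 for Myh3 and -1.03 to 0.15 for Myh8. Against baseline at 14dpr they were -0.13 to 0.05 for Ncam1 in immature and -0.36 to 0.04 for Myf5 in mature mice. Differences between the ages with such a range were Myh3 (-0.43 to 0.29) and Ncam1 (-0.12 to 0.1) at baseline, Myf5 (-0.29 to 0.45) at 2dpr, Myh8 (-0.11 to 0.8) at 5dpr and Pax7 (-0.29 to 0.56) at 14dpr. Interactions with such a range were Pax7 (-0.16 to 0.78) from 0 to 2dpr, and Myog (-0.47 to 0.04) and Myh8 (-1.55 to 0.05) from 2 to 5dpr.

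Levels of different members can be compared only per kilobase of exon. At 5dpr Myh3 was at 112 ± 45.3 CPM per kb in immature mice and 166 ± 68.9 in mature mice (mean ± SD, n = 4 and n = 3). Myog followed with 75.8 ± 20.9 and 113 ± 11.9 CPM per kb, and Myh8 with 62.7 ± 27.6 and 51.9 ± 31.4. This order depends on the exon bases used as divisor, 6057 for Myh3 and 11772 for Myh8. In CPM, Myh8 was above Myh3 in immature mice (means of 738 and 677) and below it in mature mice (611 and 1007). Myf6 was at 21.5 ± 5.2 and 23.8 ± 4.12 CPM per kb. Ncam1 was at 14.8 ± 2.97 and 16.7 ± 1.87, and Myod1 at 8.12 ± 1.75 and 15.9 ± 2.62 CPM per kb. Myf5 was at 2.1 ± 0.659 and 4.36 ± 0.964, and Pax7 was the lowest, at 1.06 ± 0.403 and 1.59 ± 0.304 CPM per kb. At baseline the order was different, with Myf6 first (31 ± 6.16 and 21.9 ± 8.97 CPM per kb), Ncam1 second (7.97 ± 1.41 and 8.05 ± 1.23) and Pax7 last (0.233 and 0.137).

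Immature and mature mice were also compared at each stage. At baseline 0 of 8 members differed (edgeR, with 3 members at an unadjusted p under 0.05 and 0 called by DESeq2), where 0.585% of all genes did. Of all 21204 genes, 2482 were at that unadjusted p. The values, immature over mature, were 0.78 for Pax7, 1.07 for Myf5, 0.47 for Myod1, 0.79 for Myog, 0.5 for Myf6, 0.06 for Myh3, 1.27 for Myh8 and -0.02 for Ncam1, with adjusted p-values of 0.329 to 0.988. Without replicate 2 of immature baseline the Myh8 value was 0.38 (adjusted p = 0.883). Myog passed the threshold only without replicate 4 of mature baseline (1.28, adjusted p = 0.0454). At 0dpr 0 of 8 differed in edgeR (2 at an unadjusted p under 0.05, 0 by DESeq2), against 0.726% of all genes. The number of all genes at that unadjusted p was 2278 of 21204. Without replicate 1 of immature 0dpr 0 members differed as well, and the number of all genes called went from 154 to 51 higher and 17 lower. The values at 0dpr were 0.73 for Pax7, 1.07 for Myf5, -0.19 for Myod1, 0.34 for Myog, 0.2 for Myf6, -1.17 for Myh3, -0.35 for Myh8 and 0.35 for Ncam1, and only Myh3 had no overlap. Without replicate 1 of immature 0dpr they were 0.55, 1.39, -0.08, 0.54, 0.39, -1.22, -0.56 and 0.24 in the same order. At 5dpr 0 of 8 differed (3 at an unadjusted p under 0.05, 0 by DESeq2), and 0% of all genes did. At that unadjusted p were 1081 of all 21204 genes. At 14dpr 0 of 8 differed (2 at an unadjusted p under 0.05, 0 by DESeq2), against 0.00943% of all genes, with 968 of 21204 genes at that unadjusted p. The values at 14dpr were -0.01 for Pax7, 0.31 for Myf5, -0.69 for Myod1, -0.55 for Myog, -0.32 for Myf6, -1.02 for Myh3, -0.76 for Myh8 and -0.15 for Ncam1, all with overlap. At 5dpr all 3 mature libraries were above all 4 immature ones for Myf5 (-1.06, adjusted p = 0.916), Myod1 (-0.96, adjusted p = 0.434) and Myog (-0.57, adjusted p = 0.98), without reaching the threshold. The other members overlapped at 5dpr, with -0.58 for Pax7, -0.14 for Myf6, -0.57 for Myh3, 0.27 for Myh8 and -0.18 for Ncam1. The share of all genes without overlap between the ages is not given here for any stage, so a lack of overlap alone does not set a member apart.

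At 2dpr 3 members differed between the ages, 2 higher and 1 lower in immature mice, where 0.627% of all genes differed in either direction. In each of these the libraries of the ages did not overlap. Myh3 was higher in immature mice by 1.81 (SE 0.407, adjusted p = 0.0258), a call lost without replicate 4 of immature 2dpr (1.55, adjusted p = 0.132). It was also lost without replicate 1 (1.7, adjusted p = 0.0702), 3 (1.57, adjusted p = 0.0899) or 4 (1.72, adjusted p = 0.0587) of mature 2dpr. Ncam1 was higher in immature mice by 0.85 (SE 0.183, adjusted p = 0.0173), and by 0.91 (adjusted p = 0.0246) without replicate 3 of mature 2dpr. Its call was lost without replicate 4 of immature 2dpr (0.77, adjusted p = 0.094) or replicate 1 (0.82, adjusted p = 0.0505) or 4 (0.69, adjusted p = 0.0587) of mature 2dpr. Myf6 was lower in immature mice (-1.14, SE 0.276, adjusted p = 0.0429). Its call was lost without replicate 1 (-1.26, adjusted p = 0.0724), 2 (-1.23, adjusted p = 0.0503), 3 (-1.1, adjusted p = 0.094) or 4 (-0.98, adjusted p = 0.182) of immature 2dpr. It was lost likewise without replicate 3 (-1.18, adjusted p = 0.0544) or 4 (-0.92, adjusted p = 0.105) of mature 2dpr. Without replicate 3 of mature 2dpr, 1 member (Ncam1) differed at this stage. In a fit of the libraries of 2dpr alone none of the 3 was called (adjusted p = 0.418 to 0.435). The members not called were Pax7 (0.96), Myf5 (-0.06), Myod1 (0.74), Myog (-0.42) and Myh8 (0.75), all with overlap. The values without replicate 3 of mature 2dpr were 0.58, 0.45, 0.69, -0.62 and 1.82 in the same order. From the lists described below, Heyl, Cdkn1c, Igf2, Col15a1 and Cidea were also called higher in immature mice at 2dpr. Without replicate 3 of mature 2dpr the lists of these genes held 0 calls, while 2 osteoblast markers and 1 adult muscle gene were then called higher.

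For the interaction of age with the change from 0 to 2dpr, 1 member (Myh3) was called, against 0.0613% of all genes (13 genes). The numbers without replicate 3 of mature 2dpr were 0 members and 3 of all genes, and without replicate 1 of immature 0dpr 0 members and 5 of all genes. For the change from 2 to 5dpr, edgeR called 0 of 8 members and 0% of all genes. At an unadjusted p under 0.05 were 4 members, beside 1715 of all 21204 genes. DESeq2 called 2 members in that interaction.

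**Figure D3:**
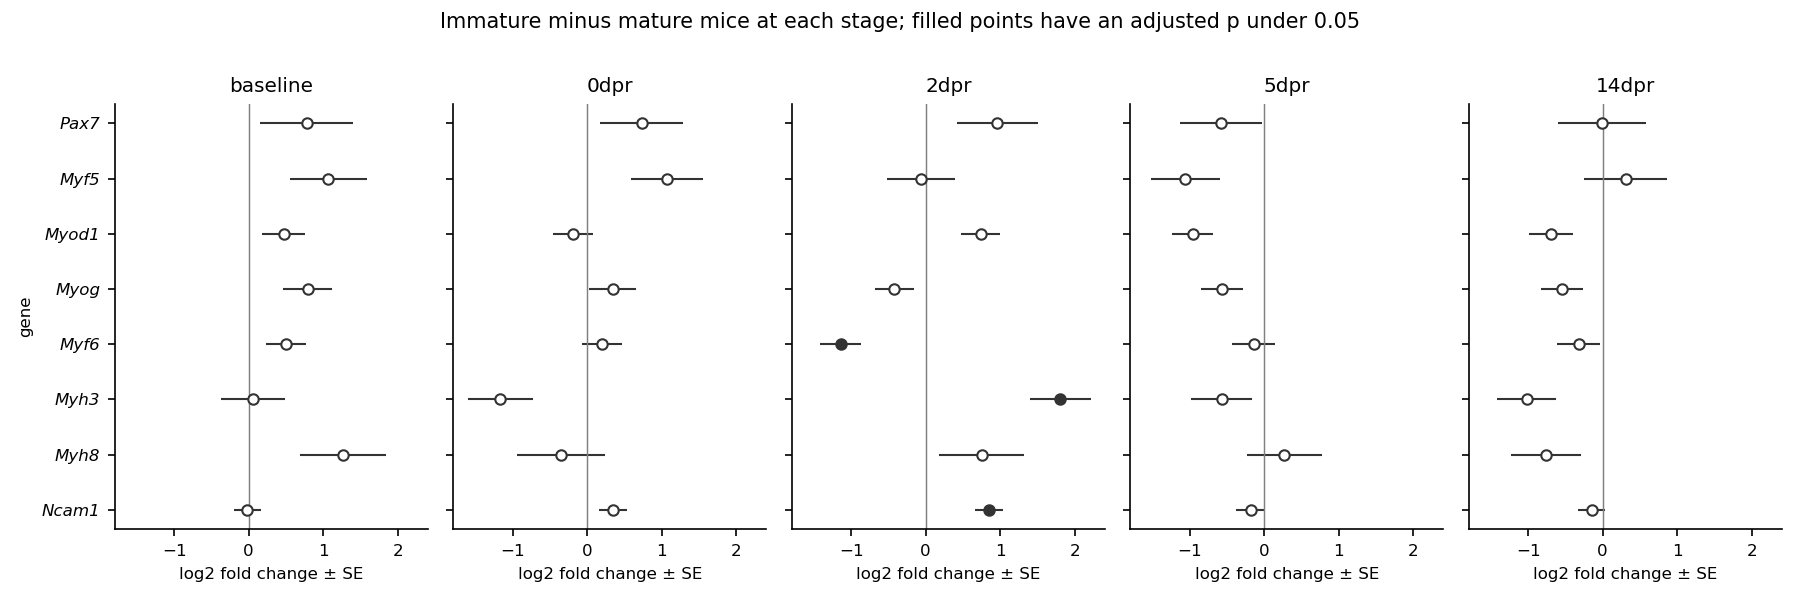
Log2 fold change of immature over mature mice (horizontal axis, with SE bars) for each member (vertical axis) at baseline, 0, 2, 5 and 14dpr. Filled points have an adjusted p under 0.05, which only Myh3, Ncam1 and Myf6 at 2dpr had.

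The amount of muscle RNA in the libraries changed between stages. A list of 20 adult skeletal muscle genes had summed levels of 98220, 112865, 117255 and 90560 CPM at immature baseline and 127343, 153613, 234860 and 169718 CPM at 0dpr. The sums were 27690, 19451, 31535 and 23135 CPM at 2dpr, 42677, 32062, 42407 and 35695 CPM at 5dpr and 22718, 16944, 28701 and 27420 CPM at 14dpr. All immature libraries from 2dpr on were far below those of baseline and 0dpr. In mature mice the sums were 50632, 49013, 90026 and 94773 CPM at baseline, 174718, 131685, 264456 and 152047 CPM at 0dpr and 16135, 18248, 22508 and 31859 CPM at 2dpr. They were 22620, 36504 and 51564 CPM at 5dpr and 22201, 39586, 34052 and 22415 CPM at 14dpr. Titin (Ttn) was the most abundant gene of the list in every library, and 0 of the 20 genes were at 0 in any library. All 20 fell from 0 to 2dpr in both ages (medians -2.76 and -3.24), and 19 rose from baseline to 0dpr in mature mice and 2 in immature mice. Of the list, 4 rose from 2 to 5dpr in immature and 11 in mature mice (9 without replicate 3 of mature 2dpr). Between 5 and 14dpr 1 fell in immature and 0 in mature mice, and at 14dpr 20 of 20 were below baseline in immature and 17 in mature mice. Fewer muscle cells and less RNA per muscle cell cannot be told apart in these libraries. The part of the muscle content in the members' changes was read only from levels relative to this list and from a fit with it as a covariate.

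Relative to muscle, each member's log2 CPM was set against the mean log2 CPM of those 20 genes in the same library. That mean itself changed by -2.73 in immature and by -3.28 in mature mice from 0 to 2dpr, so a gene of unchanged CPM is higher at 2dpr by as much on this scale. Of 16147 genes with a mean of at least 1 CPM, 98.8% and 98% were higher at 2dpr, and a higher relative level at this stage does not set a member apart. The difference in immature mice was 2.87 for Pax7, 2.73 for Myf5, 3.66 for Myod1, 5.27 for Myog, 0.81 for Myf6, 5.47 for Myh3, 3.08 for Myh8 and 3.36 for Ncam1. Without replicate 1 of 0dpr, where the mean changed by -2.93, the values were 3.24, 2.41, 3.76, 5.21, 0.80, 5.74, 3.48 and 3.68. In mature mice the difference was 2.68 for Pax7, 3.94 for Myf5, 3.42 for Myod1, 6.47 for Myog, 2.66 for Myf6, 2.90 for Myh3, 2.23 for Myh8 and 3.37 for Ncam1. Without replicate 3 of 2dpr, where the mean changed by -3.26, the values were 3.62, 3.58, 3.45, 6.70, 2.66, 3.21, 1.55 and 3.28.

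From baseline to 0dpr the mean of the 20 genes changed by 0.53 and 1.26. The relative levels overlapped for every member in both ages, except Ncam1 in mature mice (-2.20), where 58% of the 16147 genes were lower without overlap. Without replicate 1 of immature 0dpr Ncam1 was lower without overlap in immature mice as well (-1.45), as were 62.3% of the genes. Between 2 and 5dpr the mean changed by 0.64 and 1.01. Myh3 (2.83 and 5.04) and Myh8 (6.03 and 6.45) were then higher relative to muscle without overlap in both ages, as were 1.1% and 0.941% of the genes. With overlap in both ages, the relative level differed by -0.14 and 1.69 for Pax7, by 0.25 and 0.97 for Myf5, by 0.50 and 0.40 for Myog and by 0.20 and 0.92 for Ncam1. The mature values without replicate 3 of 2dpr were 0.75 for Pax7, 1.33 for Myf5 (no overlap), 0.17 for Myog, 4.72 for Myh3, 7.12 for Myh8 and 1.01 for Ncam1. Myod1 was lower relative to muscle in immature mice (-1.45, no overlap), and Myf6 in mature mice (-1.19, no overlap), beside 43.3% and 20.8% of the genes. In the other age Myod1 (-0.19) and Myf6 (0.13) overlapped. From 5 to 14dpr the mean changed by -0.55 and -0.22, and 91.4% and 68.3% of the genes were higher on this scale, whereas all 8 members were lower in both ages. The values were -1.22 and -2.38 for Pax7, -1.76 and -3.34 for Myf5, -1.50 and -2.22 for Myod1, -2.31 and -2.70 for Myog and -0.96 and -1.13 for Myf6. They were -3.79 and -3.68 for Myh3, -2.57 and -1.84 for Myh8 and -0.35 and -0.74 for Ncam1, with overlap only for Ncam1. Without overlap, 1.05% and 1.92% of the genes were lower over this interval. At 14dpr the mean was apart from baseline by -2.10 and -1.23, and 97.6% and 90.9% of the genes were above baseline on this scale. The differences were 3.45 and 4.01 for Myog, 3.76 and 3.85 for Myh3, 5.59 and 6.33 for Myh8 and 2.41 and 1.98 for Pax7. They were 1.31 and 1.43 for Myod1, 2.09 and 1.34 for Ncam1, 1.29 and 1.16 for Myf5 and 0.05 and 0.09 for Myf6. These differences carry no test.

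**Figure D4:**
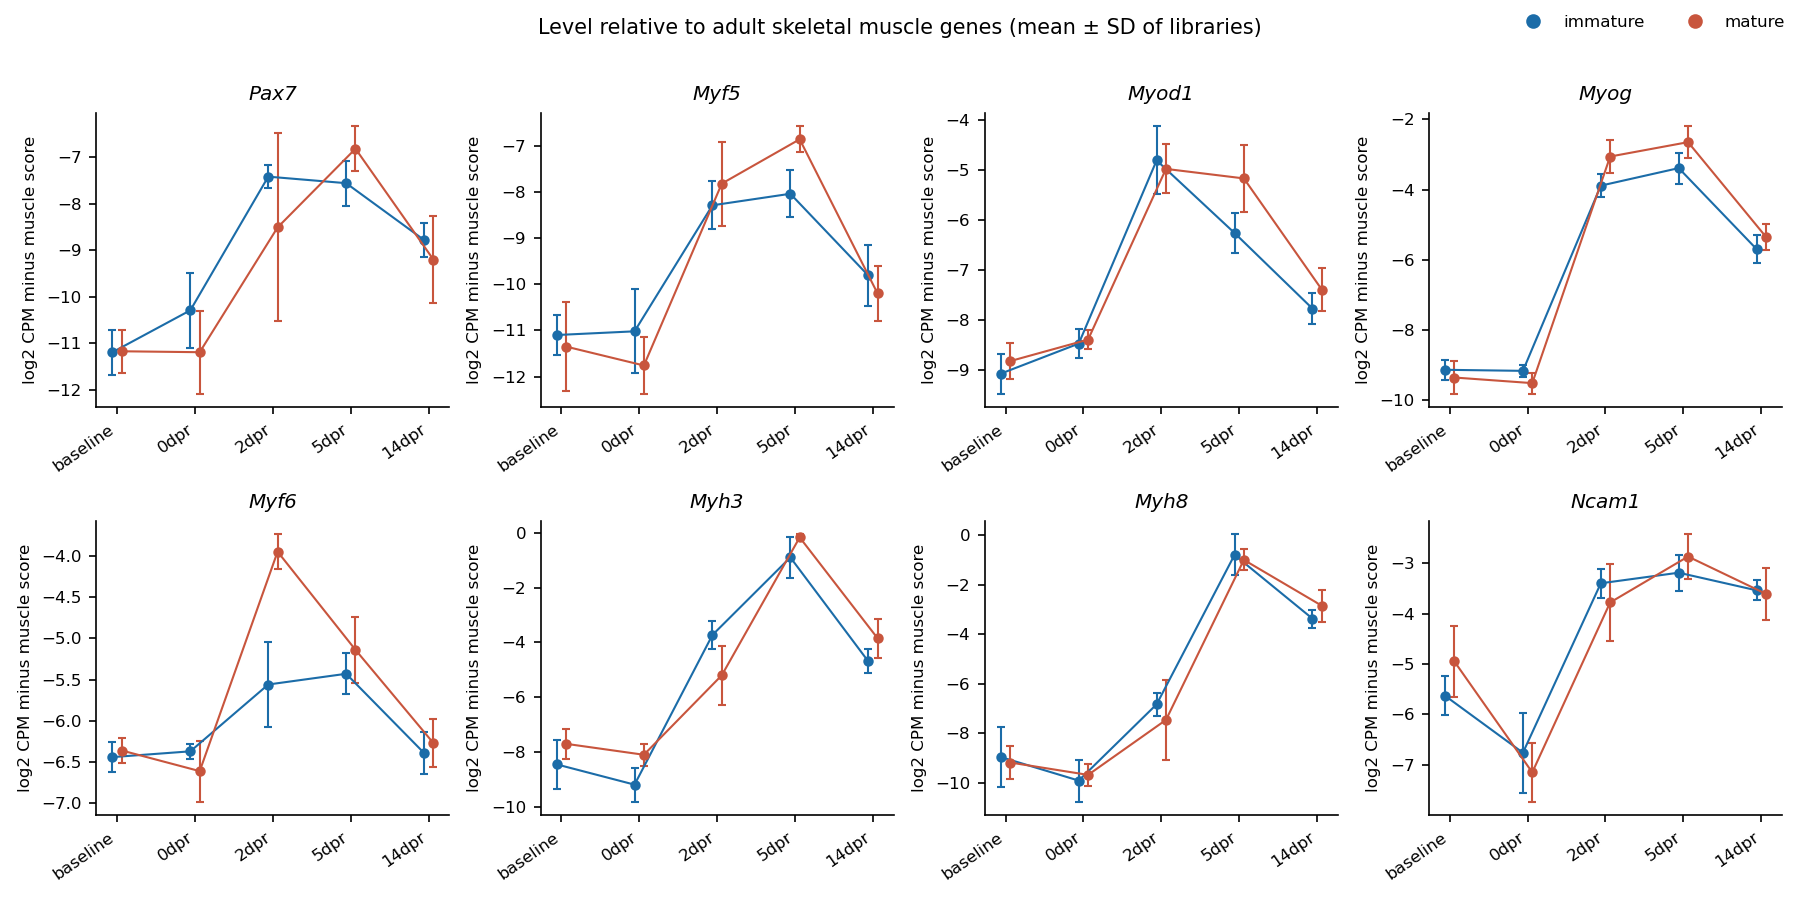
Log2 CPM of each member minus the mean log2 CPM of 20 adult muscle genes (vertical axis) by stage in immature and mature mice. Points are group means with SD bars; from 0 to 2dpr the mean of the 20 genes changed by -2.73 and -3.28, which moves every gene up by as much.

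The counts of all lists stand beside the shares of all genes that rose and fell, given for immature, then mature mice. From baseline to 0dpr these were 5.98% and 4.66%, then 11.9% and 10.6%. From 0 to 2dpr: 21.8% and 22.2%, then 22.7% and 24.9%. From 2 to 5dpr: 4.37% and 3.68%, then 8.16% and 6.38%. From 5 to 14dpr: 1.73% and 1.45%, then 1.95% and 2.23%. Counts near these shares do not set a list apart. Other genes of satellite cells were read from a list of 18 that includes Pax7 and Myf5. From 2 to 5dpr 5 rose and 2 fell in immature mice, with a median of 0.66. In mature mice 10 of the 18 rose and 0 fell, with a median of 1.13 (9 rose and 1 fell without replicate 3 of 2dpr). Among them Megf10, an engulfment receptor of satellite cells, rose by 1.32 in immature and 2.53 in mature mice, and Heyl, a target of Notch signalling, by 1.16 and 2.78. Fgfr4, a receptor for fibroblast growth factors, rose by 2.37 in mature mice, and it fell from 5 to 14dpr in both ages (-2.98 and -3.02). Over that last interval 5 of the list fell in immature mice (1 rose) and 8 in mature mice (0 rose). Between 0 and 2dpr the numbers were 3 up with 6 down in immature mice (4 and 5 without replicate 1 of 0dpr) and 4 up with 8 down in mature mice (4 and 9 without replicate 3 of 2dpr). Between baseline and 0dpr they were 3 up with 3 down in immature mice (1 and 2 without replicate 1 of 0dpr) and 5 up with 3 down in mature mice. Between baseline and 14dpr they were 2 up with 4 down and 5 up with 3 down.

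Genes of differentiation and cell fusion formed a list of 15 that includes the members Myod1, Myog and Myf6. Of the 15 genes 13 were tested, since 2 are older symbols of Mymk and Mymx. Myomaker (Mymk) is the membrane protein that myoblasts need to fuse. In immature mice Mymk was at 0.149, 0.123, 0.182 and 0.139 CPM at 0dpr, at 8.48, 7.77, 8.63 and 10.8 CPM at 2dpr and at 32, 42.2, 46.5 and 17 CPM at 5dpr. Mature Mymk levels were at 0, 0.125, 0.886 and 0.278 CPM at 0dpr, at 2.31, 4.5, 0 and 2.41 CPM at 2dpr and at 41.3, 56.3 and 79.9 CPM at 5dpr. At 2dpr every immature library was above every mature one, but the difference between the ages was not past the threshold (1.92, adjusted p = 0.0635), and at 5dpr the ages overlapped. At 14dpr Mymk was at 4.39, 2.33, 2.93 and 3.08 CPM in immature and at 5.91, 6.48, 5.13 and 5.71 CPM in mature mice. Its partner myomixer (Mymx) had means of 0.171, 0, 3.12, 9.22 and 1.02 CPM from baseline to 14dpr in immature mice, and 0.021, 0.0347, 1.13, 18.6 and 2.04 CPM in mature mice. Both fusion genes thus had their highest level at 5dpr, the stage of the highest Myog, Myh3 and Myh8. Of the 13 genes, 5 rose and 1 fell from 2 to 5dpr in immature mice. The mature numbers were 8 up and 1 down (6 and 0 without replicate 3 of 2dpr), led by Mymk (4.65) and Mymx (3.95). Between 5 and 14dpr 6 fell in immature and 7 in mature mice, and 0 rose. The change from 0 to 2dpr gave 5 up with 5 down in immature mice and 5 up with 4 down in mature mice. At 0dpr 5 were above baseline in immature (3 without replicate 1 of 0dpr) and 6 in mature mice with 0 below it, and at 14dpr 6 were above it in each age, with 4 and 1 below it.

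A list of 11 contractile genes, named here as embryonic and fetal, includes Myh3 and Myh8. Its genes are not confined to new fibres, since at baseline they already summed to 1677 CPM in immature and 1203 CPM in mature mice. Mybpc1 gave the most of this, with means of 932 and 783 CPM. From 2 to 5dpr 9 of the 11 rose in immature mice (median 2.02) and 10 of 11 in mature mice (median 2.97). Cardiac actin (Actc1), the actin form of immature fibres, rose by 3.65 and 5.22, and the embryonic light chain Myl4 by 2.89 and 3.7. Between 5 and 14dpr 10 of 11 fell in each age, with medians of -2.83 and -2.82. The change from 0 to 2dpr gave 3 up with 5 down in immature mice, and 2 up with 5 down in mature mice (6 down without replicate 3 of 2dpr). At 0dpr 1 was above baseline in immature and 7 in mature mice, with 0 below it, and at 14dpr 4 and 5 were above and 5 and 2 below it.

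Ncam1 also belongs to a list of 18 genes of the neuromuscular junction and of the response to denervation. The acetylcholine receptor of immature fibres carries a gamma subunit (Chrng), which the epsilon subunit (Chrne) replaces in adult muscle. In immature mice Chrng was at 8.69, 6.19, 6.28 and 6.97 CPM at 2dpr and at 12.5, 15.7, 15.1 and 7.29 CPM at 5dpr, beside means of 0.167 CPM at baseline and 0.0373 at 0dpr. Mature Chrng levels were at 2.15, 5.54, 0.111 and 3.98 CPM at 2dpr and at 22, 26.5 and 32.6 CPM at 5dpr, beside means of 0.131 and 0.637 CPM. At 2dpr all immature libraries were above all mature ones, but the difference between the ages was not past the threshold (1.23, adjusted p = 0.323). Chrne was lower at 2dpr than at 0dpr, the opposite of Chrng, while from 2 to 5dpr and on to 14dpr the means of both went the same way. Chrne had means of 7.11, 6.62, 0.638, 2.55 and 1.48 CPM from baseline to 14dpr in immature mice, and 2.55, 6.32, 0.146, 1.85 and 1.58 CPM in mature mice. Of the 18 genes, 3 rose from 2 to 5dpr in immature mice (2 fell) and 8 in mature mice (0 fell), or 5 with 1 falling without replicate 3 of mature 2dpr. Between 5 and 14dpr 6 fell in immature and 8 in mature mice, with 1 rising in each, led by Chrng, Chrna1 (-3.14 and -3.15) and Chrnd (-2.58 and -2.63). The change from 0 to 2dpr gave 7 up with 6 down in immature mice and 6 up with 6 down in mature mice. At 0dpr the immature numbers were 1 above and 1 below baseline (1 and 2 without replicate 1 of 0dpr), and the mature numbers 5 and 3. At 14dpr 4 and 6 were above and 6 and 5 below it.

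**Figure D5:**
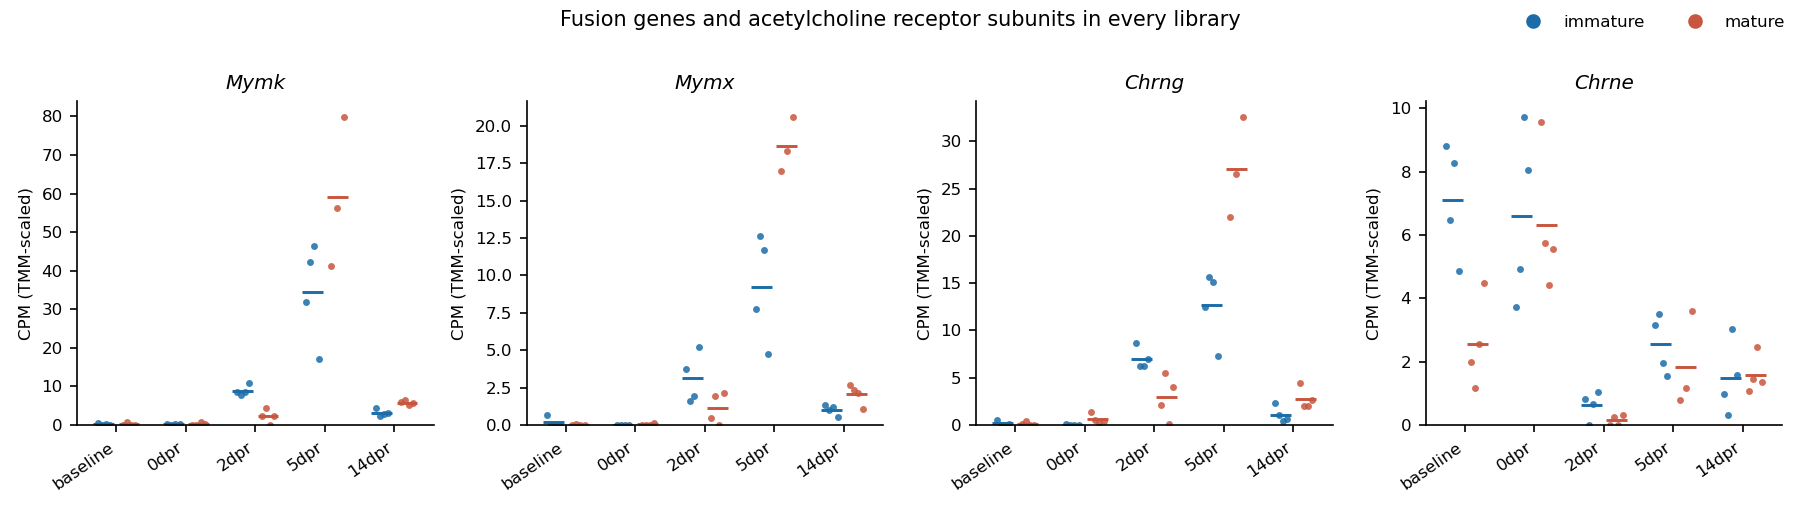
CPM of the fusion genes Mymk and Mymx and of the receptor subunits Chrng and Chrne (vertical axis) by stage in immature and mature mice. Points are libraries and bars are group means; Mymk reached 79.9 CPM at mature 5dpr, and Chrne had its lowest mean, 0.146 CPM, at mature 2dpr.

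Growth factors and inhibitors that act on satellite cells formed a list of 20, of which 19 were tested and Wnt7a was not listed. Igf2, a growth factor of developing and regenerating muscle, was at 33.5, 19.6, 33.8 and 38.7 CPM at immature 2dpr and at 257, 284, 297 and 156 CPM at 5dpr. Mature Igf2 levels were at 11.3, 19.9, 5.55 and 15.5 CPM at 2dpr and at 218, 306 and 400 CPM at 5dpr. The stages did not overlap in either age, and Igf2 rose by 2.98 (adjusted p = 2.22e-08) and 4.55 (adjusted p = 6.05e-12). Igf1 rose by 1.07 and 1.38 over the same interval. Myostatin (Mstn), an inhibitor of muscle growth made by fibres, fell from 0 to 2dpr in both ages (-3.42 and -3.41). Of the 19 genes, 3 rose from 2 to 5dpr in immature and 5 in mature mice, with 1 falling in each. The change from 0 to 2dpr gave 4 up with 6 down in immature mice (5 and 4 without replicate 1 of 0dpr) and 6 up with 5 down in mature mice (6 and 4 without replicate 3 of 2dpr). The change from 5 to 14dpr gave 1 up with 2 down and 2 up with 1 down. The immature numbers at 0dpr were 3 above and 0 below baseline, and the mature numbers 6 and 3. At 14dpr 11 and 10 were above and 2 and 1 below it.

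Schwann cells also make Ncam1, so their markers are given beside its rise from 2 to 5dpr. The summed level of 10 Schwann cell genes was 423, 331, 320 and 392 CPM at immature 2dpr and 241, 275, 242 and 248 CPM at 5dpr. The mature sums were 392, 253, 256 and 233 CPM at 2dpr and 233, 231 and 237 CPM at 5dpr. All immature sums at 5dpr were below those of 2dpr, and the mature sums overlapped. The part of Schwann cells in the rise of Ncam1 was not tested. Pmp22 was the most abundant of the 10 in these libraries, except replicate 1 of mature 2dpr, where it was Mbp, and replicate 3 of mature 2dpr had 2 of the genes at 0. Of the 10 genes, 2 fell and 0 rose from 2 to 5dpr in immature mice. In mature mice 2 fell and 1 rose, Erbb3 (1.35), with 3 falling without replicate 3 of 2dpr. Earlier, from 0 to 2dpr, 7 fell in immature and 4 in mature mice, and 0 rose.

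Markers of other cells also changed between stages, and their part in the members' changes was not tested. From 0 to 2dpr all 8 macrophage markers rose in each age, and from 2 to 5dpr 5 fell in immature and 3 in mature mice. Of 8 natural killer cell markers, 1 rose from 0 to 2dpr in each age (0 in immature mice without replicate 1 of 0dpr), with 2 falling in mature mice. From 2 to 5dpr 0 natural killer markers changed in immature mice, while in mature mice 1 rose (0 without replicate 3 of 2dpr) and 1 fell. Of 5 tested markers of neurons (3 more were not listed), 1 rose from 2 to 5dpr in each age. Over the interval from 0 to 2dpr 1 neuron marker rose in each age, with 2 falling in immature and 1 in mature mice. Of 8 markers of fibro-adipogenic cells, 1 was up and 6 down from 0 to 2dpr in immature mice (2 and 4 without replicate 1 of 0dpr), and 2 up and 4 down in mature mice (2 and 5 without replicate 3 of 2dpr). Of these, 2 rose from 2 to 5dpr in immature and 5 in mature mice (3 without replicate 3 of mature 2dpr). Of 9 tested chondrocyte markers (1 more was not listed), 3 rose from 2 to 5dpr in immature and 2 in mature mice. Earlier, from 0 to 2dpr, 3 of them were lower in immature (2 without replicate 1 of 0dpr) and 2 in mature mice, where 1 was higher (0 without replicate 3 of 2dpr). Of 8 osteoblast markers, 2 fell from 0 to 2dpr in immature and 6 in mature mice (5 without replicate 3 of 2dpr), and from 2 to 5dpr 1 rose in immature and 0 in mature mice (1 without that library). Of 8 smooth muscle markers, 3 fell from 0 to 2dpr in immature and 5 in mature mice, and from 2 to 5dpr 2 and 6 rose (5 without that library). Of 6 brown adipocyte markers, 3 fell from 0 to 2dpr in immature and 6 in mature mice, and from 2 to 5dpr 0 and 5 rose (3 without that library). Cox8b made up 396 of the summed 437 CPM of this list at immature baseline and 259 of 304 CPM at mature baseline. The pieces hold muscle, and its part in the levels of this list was not tested, so the counts are not a measure of brown fat.

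Over the first interval, from baseline to 0dpr, 1 macrophage marker rose and 1 fell in immature mice (0 and 1 without replicate 1 of 0dpr), and 7 of 8 fell in mature mice. Of the osteoblast markers 1 fell in immature (3 without that library) and 6 in mature mice, and of the natural killer markers 2 (0 without it) and 3. Of the brown adipocyte markers 3 rose in immature (1 without it) and 4 in mature mice, and of the smooth muscle markers 3 and 5. In each age 1 fibro-adipogenic and 1 Schwann cell marker rose, and in mature mice 1 neuron marker rose and 1 chondrocyte marker fell. Over the last interval, from 5 to 14dpr, 5 osteoblast markers rose in immature and 4 in mature mice, with 1 and 5 chondrocyte markers, 2 and 3 fibro-adipogenic markers and 1 and 0 macrophage markers. The smooth muscle markers gave 0 up with 1 down in immature mice and 1 up with 2 down in mature mice. In each age 1 neuron marker fell, and 0 and 1 Schwann cell markers did. At 14dpr all 8 macrophage markers were above baseline in each age, with 7 and 8 chondrocyte markers (1 below it in each age) and 5 fibro-adipogenic markers in each (1 below it). Of the osteoblast markers 4 were above baseline in immature mice and 1 was below it in mature mice. Above it were also 1 and 5 smooth muscle markers and 2 neuron markers in each age. Below it were 2 brown adipocyte markers in each age and 0 and 2 natural killer markers. Of the Schwann cell markers 1 and 2 were above and 3 and 4 below baseline.

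The genes whose pattern was most like a member were found by Pearson r of log2 CPM over the 39 libraries, among 16147 genes with a mean of at least 1 CPM. Libraries of a stage share that stage, so these values are a description. For Pax7 they were Fgfr4 (r = 0.899), Myl6b (0.807) and Inppl1 (0.800), which became 0.870, 0.741 and 0.750 without replicate 3 of mature 2dpr. For Myod1 they were Itga7 (0.885), Ube2m (0.825) and Bysl (0.825). Over the 10 group means the r values were 0.977 for Fgfr4 with Pax7 and 0.928 for Itga7 with Myod1. For Myog they were Nes (0.947), Ttc9 (0.937) and Prune2 (0.928), and for Myh3 they were Tnnt2 (0.929), Mymx (0.922) and Mymk (0.919). Among the members themselves, Myh3 and Myh8 were the most alike (0.87), followed by Myog with Myh3 and Myh3 with Ncam1 (both 0.79). Myod1 and Myh8 had an r of 0.02, and Myf6 and Myh8 one of -0.38.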

How the data were processed

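RNA from rib tissue was sequenced in 39 libraries of 10 groups (2 ages by 5 stages), grouped by their labels. The authors aligned reads to GRCm38 with STAR 2.5.2a and deposited read counts per gene in a full and a filtered table. The deposited CPM signal values are TMM-scaled by the authors and equalled edgeR's within a relative difference of 5e-15. The authors' filter rule is not stated.

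Counts of the 21204 filtered genes were fitted here with edgeR 4.0.16 (limma 3.58.1, R 4.3.3): TMM, 1 coefficient per group, 29 residual degrees of freedom, quasi-likelihood tests, Benjamini-Hochberg adjustment, threshold 0.05, 17 comparisons. Levels, log2 CPM (prior count 2), likeness and figures used Python 3.11.15, numpy 2.4.6, pandas 2.3.3 and matplotlib 3.10.9. Total counts were 6057756 to 21537070 per library, and Pax7 and Myf5 were the members with the fewest reads.

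Alternatives were RLE size factors, DESeq2 1.42.0 (Wald test), the full table under edgeR's filter or with a minimum of 1 count, fits of the compared libraries alone, replicate numbers as a block, a muscle score as a covariate, other prior counts and summaries of that score, likeness over group means, and each library left out in turn. Leaving out replicate 3 of mature 2dpr or replicate 1 of immature 0dpr for the gene lists, relative levels and likeness was chosen after seeing the data, as was the share of all genes beside the relative levels. The steps were tested on simulated data.

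All 8 members are named in every comparison. From each list the text gives counts per direction for changes between stages, and it names at most the 4 called genes with the largest change and a mean of at least 1 CPM. Counts per list for differences between the ages are not given. The receptor and fusion genes shown by library and the summed levels were chosen after their values were seen. For likeness the 3 genes with the highest r are named. The members and lists were chosen with earlier results of these data known.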

Additional observations from a re-analysis of the deposited data

Results flagged for a closer look

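In 5 of 72 combinations of a member with a group of 4 libraries, the gap between the highest library and its nearest neighbour took up an unusually large share of the group's range, as chance alone does in about 1 in 20 groups. Pax7 was at 4.92 CPM in replicate 1 of immature 2dpr, beside 3.83 to 3.94 CPM in the others. Myf5 was at 4.55 CPM in replicate 3 of mature 2dpr, beside 1.39 to 1.91 CPM, and this is the library with 0 Pax7 reads. Myod1 was at 9.79 CPM in replicate 3 of immature baseline, beside 4.79 to 5.6 CPM. Myog was at 6.51 CPM in replicate 4 of mature baseline, beside 2.2 to 2.56 CPM. Myh8 was at 20.7 CPM in replicate 2 of immature baseline, beside 3.74 to 5.84 CPM. The change of Myh3 from 0 to 2dpr differed between the ages by 2.98 on the log2 scale, by edgeR's test of the interaction (adjusted p = 0.0405), in 8 immature and 8 mature libraries. It kept this call in 5 of 16 fits with 1 library left out. The call was lost with the muscle covariate (edgeR, adjusted p = 0.0586) and with the compared libraries alone (edgeR, adjusted p = 0.323).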

How the results depend on the processing

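Most results kept their direction and their side of the threshold. Of 136 results for single members, the number that did so was 129 with DESeq2, 135 with RLE size factors, 135 with all genes of at least 1 count, 134 with edgeR's filter, 123 with only the libraries compared, 130 with the replicate block and 115 with the muscle score as a covariate. The covariate reversed 2: Myf6 from 0 to 2dpr became 0.23 (adjusted p = 0.837) in immature and 1.90 (adjusted p = 0.0106) in mature mice. It also gained 2 calls of Myf6, a fall from 2 to 5dpr in mature mice (-0.96, adjusted p = 0.00963) and the interaction from 0 to 2dpr (-1.67, adjusted p = 0.00715), and lost 17. Those lost were Myod1 and Ncam1 from baseline to 0dpr in both ages, Myog and Myf6 over that interval in mature mice, Ncam1 from 0 to 2dpr and Myog from 2 to 5dpr in immature mice, and Pax7, Myf5, Myod1 and Myog from 2 to 5dpr in mature mice. Between baseline and 14dpr they were Myod1, Myf6 and Myh3 in immature and Myf6 in mature mice. The last was the Myh3 interaction (2.81, adjusted p = 0.0586), so that the count of 1 for that interaction stayed while the gene differed. The cause was not tested, and the score itself differs between these stages.

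The number of members called moved in the following cases, among others. With the covariate it became 0 from baseline to 0dpr in each age, 3 from 0 to 2dpr in immature and 2 in mature mice, 4 from 2 to 5dpr in mature mice and 2 between immature baseline and 14dpr. With only the libraries compared, which leaves fewer samples for the spread, it became 0 from baseline to 0dpr in immature mice, 4 from 2 to 5dpr in mature mice, 0 between the ages at 2dpr and 0 for the interaction from 0 to 2dpr. From 0 to 2dpr in mature mice it became 2 with RLE size factors, edgeR's filter and DESeq2. DESeq2 called 2 for the interaction from 2 to 5dpr, Myod1 (-1.66, adjusted p = 0.0166) and Myh3 (-2.36, adjusted p = 0.0317). Its other added calls were Pax7 from baseline to 0dpr in both ages, Pax7 from 5 to 14dpr and Myf6 from 2 to 5dpr in immature mice, and Myf6 from 0 to 2dpr in mature mice, and it lost none. Where no construction is named, the cause was not tested.

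Replicate numbers do not pair the libraries: over 154 pairs with the same number, the mean correlation of deviations from the group means was 0.0125 (-0.232 to 0.346), and 3 of 39 libraries correlated best with their own number. With the replicate number as a block, the count became 0 from baseline to 0dpr in immature mice, with Myod1 at 1.01 (adjusted p = 0.0614) and Ncam1 at -0.58 (adjusted p = 0.102). It became 2 from 0 to 2dpr in mature mice, where Myf6 was at -0.62 (adjusted p = 0.0339). The block also moved Myod1 from 2 to 5dpr (-0.78, adjusted p = 0.139, in immature and 0.82, adjusted p = 0.0573, in mature mice) and Pax7 from 5 to 14dpr in immature mice (-2.21, adjusted p = 0.038) across the threshold.

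Leaving out 1 library at a time, the count in immature mice ran from 1 to 2 from baseline to 0dpr, 4 to 5 from 0 to 2dpr, 4 to 5 from 2 to 5dpr, 7 to 8 from 5 to 14dpr and 4 to 5 between baseline and 14dpr. In mature mice it ran from 2 to 5, 1 to 2, 6 to 7, 7 to 8 and 4 to 4. Between the ages it ran from 0 to 1 at baseline, 0 to 0 at 0dpr, 0 to 3 at 2dpr and 0 to 0 at 5 and 14dpr. For each interaction it ran from 0 to 1.

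Differences of levels relative to muscle moved by less than 1 SD with a prior count of 0.5 and with the summed list in place of the mean of logs. Pax7 and Myf5 had the fewest reads of the members, and the smallest change detectable at this depth was not tested. Mature 5dpr had 3 libraries, and the strand setting of the counting is not stated. The labels mention separate runs without assigning libraries to them, so a run effect was not tested.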
